A study of Mus musculus with 3 samples.

Results

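Acinar cells, the enzyme-secreting cells of the exocrine pancreas, were studied as they were carried along with isolated mouse islets. A barcode was taken as acinar if it had at least 500 detected genes, at most 20% mitochondrial UMIs (unique molecular identifiers, each standing for 1 captured RNA molecule), under 15% of UMIs from the insulin genes Ins1 and Ins2, and at least 10% of UMIs from Prss2, Try4, Try5, Cela1, Cela2a, Cela3b, Cpa1, Cpb1, Ctrb1, Pnlip, Clps and Reg1 together. This rule found 138 acinar barcodes among the 11314 that passed the gene and mitochondrial limits (the kept barcodes), and among 24590 in all. Of these, 35 came from recovered mice, 97 from S961 mice and 6 from control mice. All mice were C57Bl6/J males, retired breeders of 7 to 8 months, and carried a surgically placed pump. S961 is a peptide antagonist of the insulin receptor. Recovered mice had been given S961 at a labelled 20 nM per week and their pumps were then taken out, S961 mice had the same labelled dose over 2 weeks, and control mice had pumps that held no S961. Each group was 1 droplet (10x Genomics) library of islets cultured overnight and dispersed with TrypLE. The labels state neither the length of recovery nor the number of mice behind a library, so every difference is one between libraries, none could be tested, and all intervals cover counting error only.

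Acinar cells pack proteases, lipases, amylases and nucleases, many of them as inactive proenzymes, into zymogen granules that are released when a meal triggers cholecystokinin and vagal signals. Neighbouring islets supply them with insulin through a local portal flow. They are also known for a strong injury response, in which secreted C-type lectins of the Reg family, Nupr1, clusterin and the simple epithelial keratins are induced in rodent pancreatitis.

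Acinar barcodes made up 0.990% of kept barcodes in the recovered library (95% Clopper-Pearson interval 0.690 to 1.37), 2.77% in the S961 library (2.25 to 3.36) and 0.141% in the control library (0.0516 to 0.306). The recovered and S961 intervals did not overlap, and both lay above that of control. With at least 200 genes asked of a barcode, the shares were 1.69% in recovered and 5.50% in S961 mice. Islet picking, culture and loading set how much exocrine tissue enters a library, and their part in these shares was not tested. The summed depth of the acinar barcodes was 287918 UMIs in the recovered library, 2275663 in the S961 library and 41517 in the control library. The acinar barcodes held a median of 4832 UMIs and 1020 genes in the recovered library, against 14824 UMIs and 1507 genes in the S961 library, and 5451 UMIs and 1417 genes in the control library. In the S961 library 12 acinar barcodes held over 50000 UMIs, and the deepest held 200303, or 8.80% of that library's acinar UMIs. The 3 libraries shared 11 to 29 barcode sequences in pairs, and no acinar barcode was among them.

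**Figure D1:**
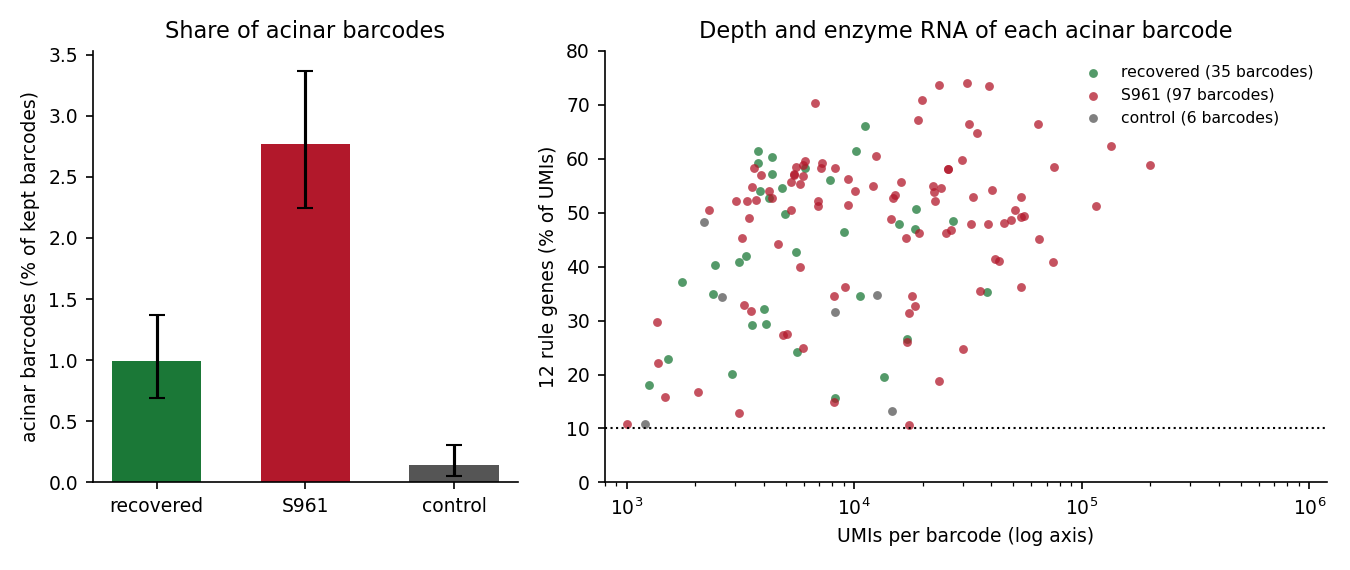
Acinar barcodes in the 3 libraries. Left, the percent of kept barcodes that were acinar, with 95% Clopper-Pearson intervals: 0.990% in recovered, 2.77% in S961 and 0.141% in control mice. Right, each acinar barcode by its UMIs (log axis) and the percent of them from the 12 genes of the membership rule, with the limit of 10% dotted; S961 barcodes reached 200303 UMIs and recovered ones 38461.

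The 12 genes chose the barcodes, so their levels are given only as a description. They took a median of 42.6% of a barcode's UMIs in recovered, 52.1% in S961 and 33.0% in control acinar cells. The barcode just inside the limit had 15.6% and the one just outside it 7.77% in the recovered library, 10.6% and 8.08% in the S961 library, and 10.9% and 2.29% in the control library. The label was borne out by enzyme genes that the rule did not use. Cel, the bile salt-stimulated lipase, was read in 35 of 35 recovered and 95 of 97 S961 acinar barcodes. Ctrl, a chymotrypsin-like protease, was read in 35 of 35 recovered and 97 of 97 S961 barcodes, and so was Sycn, the granule protein syncollin. Zg16, a zymogen granule lectin, was read in 35 of 35 recovered and 95 of 97 S961 barcodes. Ctrl came to 8926 CPM (UMIs of a gene per 1000000 acinar UMIs of the library) in recovered and 8979 CPM in S961 acinar cells, against 6.29 CPM in the other kept barcodes of the recovered library and 32.3 CPM in those of the S961 library. Transcription factors of the lineage were sparse. Ptf1a, the factor that drives enzyme genes, had 18 UMIs in recovered, 71 in S961 and 5 in control acinar cells, and its partner Rbpjl had 3, 13 and 1. Bhlha15 (Mist1), which scales up the secretory apparatus of acinar cells, had 0 UMIs in recovered, 1 in S961 and 0 in control acinar cells, although the other kept barcodes held it at 22.8 CPM in recovered, 14.1 CPM in S961 and 27.9 CPM in control mice. At the summed depth, 0 UMIs allow up to 12.8 CPM in recovered acinar cells by the exact Poisson interval. Xbp1, a factor of the secretory stress response, was the only listed acinar factor of 17 in the table to reach 100 UMIs over the recovered and S961 libraries, with 163 CPM in recovered and 178 CPM in S961 acinar cells.

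At equal depth, acinar barcodes held fewer genes than barcodes with endothelial markers. The membership rule asks for at least 10% of UMIs from a few genes, so part of this gap is built in. How large that part is was not tested, and barcodes rich in islet hormones were not thinned for comparison. Thinned to 2000 UMIs each, acinar barcodes showed a median of 470.5 genes in 32 recovered, 472 in 93 S961 and 664 in 5 control barcodes, with 3, 4 and 1 shallower barcodes left out. Barcodes with endothelial markers, thinned alike, showed 1219 genes in the recovered, 1222 in the S961 and 1207 in the control library. Mitochondrial RNA was scarce in acinar barcodes, at a median of 0.624% of UMIs in recovered, 0.450% in S961 and 0.859% in control acinar cells, against 6.16%, 4.32% and 6.17% in the other kept barcodes of the same libraries.

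RNA of other islet cells was present in acinar barcodes and differed between libraries. Ins1 and Ins2 gave a median of 1.43% of UMIs in recovered, 0.0866% in S961 and 3.16% in control acinar barcodes. Ppy and Pyy, hormones of the pancreatic polypeptide cells, summed to 267 CPM in recovered, 9257 CPM in S961 and 241 CPM in control acinar cells. They held at least 1% of UMIs in 1 recovered, 4 S961 and 0 control barcodes, and 44.6% in the highest S961 barcode. Somatostatin-cell markers held 10.8% of UMIs in 1 S961 barcode. The ductal list (7 genes) summed to 785 CPM in recovered, 649 CPM in S961 and 1734 CPM in control acinar cells, with 3, 1 and 3 of its genes at 0. In control, 1 barcode held 73.6% of the ductal UMIs. At least 3 ductal genes were read in 3 of 35 recovered, 19 of 97 S961 and 1 of 6 control barcodes, which differ in depth. The B-cell, Schwann-cell and red-cell lists were at 0 in every library, the stellate list had 0 UMIs in recovered, 5 in S961 and 0 in control, and the macrophage list had 1, 20 and 0. Scrublet, a doublet caller, marked 0 of 35 recovered, 1 of 97 S961 and 0 of 6 control acinar barcodes. Of all kept barcodes it marked 22 of 3537 in recovered, 77 of 3507 in S961 and 4 of 4270 in control mice, all under the expected 6%, so it is no check of doublets, least of all in the recovered and control libraries. How many acinar barcodes hold a second cell was not tested.

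Nupr1, Clu, Krt8 and Krt18, named above as induced in rodent pancreatitis, were abundant in acinar cells of every library. Whether their levels mark a stress state was not tested. Nupr1, a small chromatin-associated stress protein first cloned from inflamed pancreas, had 35191 CPM in recovered, 36911 CPM in S961 and 30469 CPM in control acinar cells. In the other kept barcodes it had 818 CPM in recovered, 958 CPM in S961 and 629 CPM in control mice. Clu, the secreted chaperone clusterin, had 17634 CPM in recovered, 13753 CPM in S961 and 26038 CPM in control acinar cells, against 153, 294 and 144 CPM in the other kept barcodes. Krt8 and Krt18 form the keratin filaments of simple epithelia: Krt8 had 5175 CPM in recovered, 4269 CPM in S961 and 5082 CPM in control acinar cells, and Krt18 had 4293 CPM in recovered, 3727 CPM in S961 and 4576 CPM in control. All 35 recovered barcodes, 97 of 97 S961 barcodes and 6 of 6 control barcodes held Nupr1. Between recovered and S961 acinar cells their log2 ratios were -0.07 for Nupr1, 0.36 for Clu, 0.28 for Krt8 and 0.20 for Krt18, all within 1.5-fold. Relative to Ctrb1, Clu stood at 0.75 (0.71 to 0.80), past 1.5-fold. Ctrb1 is a rule gene and was itself lower in recovered acinar cells, at a log2 ratio of -0.39. Passing 1.5-fold therefore rests on the choice of Ctrb1 and does not show a larger difference in Clu. Within a library, barcodes with more Clu tended to hold less Try4: the Spearman correlation of their shares was -0.48 over 35 recovered and -0.39 over 97 S961 barcodes. With the 11 rule genes other than Reg1 together, Clu gave -0.27 in recovered and -0.18 in S961 barcodes. Both shares come from the same barcodes, whose total they share.

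Recovered acinar cells were set against S961 acinar cells over all genes. UMIs were summed over the acinar barcodes of a library, and a gene was measured if it had at least 100 UMIs over both libraries, a limit that S961, with 7.90 times the UMIs, mostly filled. Of 1433 measured genes, 292 (20.4%) were at least 1.5-fold higher and 49 (3.42%) at least 1.5-fold lower in recovered acinar cells. The median gene stood at a log2 ratio of 0.30, and the 12 rule genes took 42.7% of all acinar UMIs in recovered and 51.5% in S961 mice. Relative to the median gene, 94 genes (6.56%) were at least 1.5-fold higher and 135 (9.42%) at least 1.5-fold lower. List medians are given relative to this median.

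**Figure D2:**
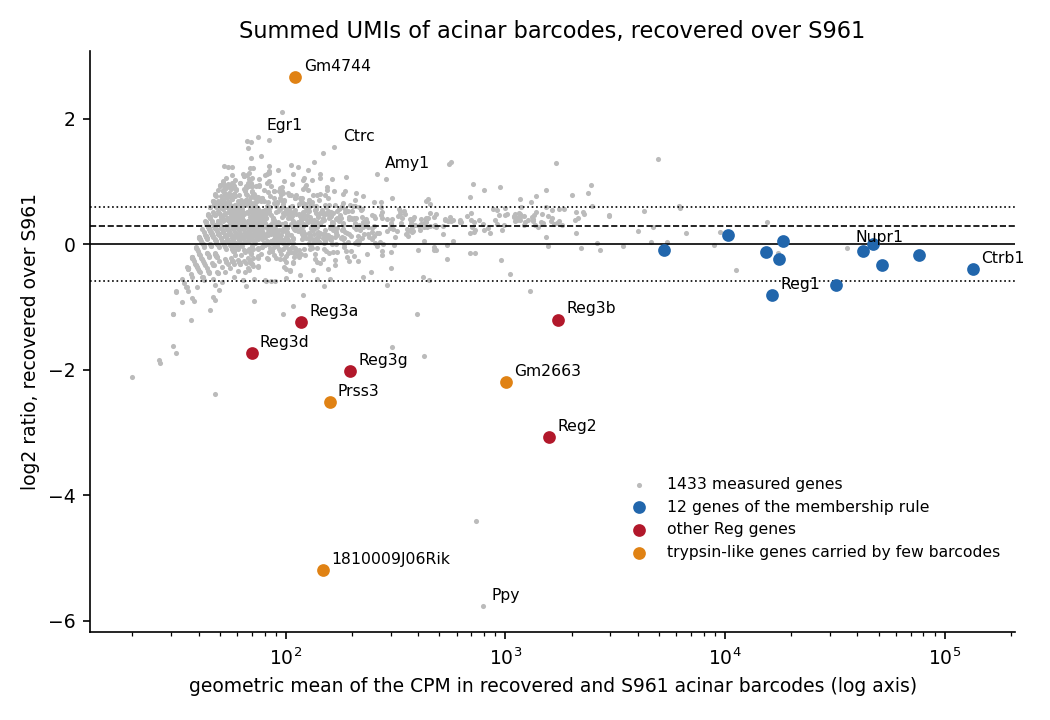
Log2 ratio of summed CPM, recovered over S961 acinar cells, for 1433 measured genes against their geometric mean CPM (log axis). Dotted lines mark 1.5-fold either way and the dashed line the median gene at 0.30; the Reg genes and 3 trypsin-like genes lie below the bulk, and Gm4744 and Ctrc above it.

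The Reg family was lower in recovered than in S961 acinar cells throughout. Reg genes encode small secreted C-type lectins: Reg1 and Reg2 are made by acinar cells and are linked to islet growth, and the Reg3 proteins bind bacterial walls or act on epithelia. In the mouse 6 of them lie together on chromosome 6 (GRCm38, chr6:78370657-78468872), a stretch of 98.2 kb. Of the 6 listed family members other than the rule gene Reg1, 5 were measured, and 5 of 5 were at least 1.5-fold lower, where 3.42% of all measured genes were. Their median was 2.03 log2 units below the median gene, and the whole list kept a median at or below -1.69 under every alternative that gave a value. The remaining member, Reg4, had 0 UMIs in all libraries. These genes stood out in S961 acinar cells in earlier work on these data, so the count is a description.

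Reg2, a paralog of the lithostathine gene Reg1, showed the largest difference among them. It had 545 CPM in recovered acinar cells (157 UMIs), 4600 CPM in S961 acinar cells (10467 UMIs) and 2409 CPM in control ones (100 UMIs, 90 of them from 1 barcode). The log2 ratio of recovered over S961 was -3.08 (95% interval -3.31 to -2.85). Without the barcodes that also carried islet hormone RNA, which left 34 recovered and 93 S961 barcodes, it was -3.13, a setting chosen after the data were seen. Per 10000 UMIs of a barcode, Reg2 ran from 0 through a median of 2.43 to a highest 34.4 in the 35 recovered barcodes, and from 0 through 9.85 to 335 in the 97 S961 barcodes. The ranges overlapped, and 1 in 10 S961 barcodes held more than 140 per 10000, a level that no recovered barcode reached. Thinned to 2000 UMIs, 53.1% of 32 recovered barcodes held Reg2 (34.7 to 70.9), against 75.3% of 93 S961 barcodes (65.2 to 83.6). Unthinned, 62.9% of recovered and 89.7% of S961 barcodes held it, and of the thinned endothelial-marker barcodes 0 of 73 in recovered and 0 of 199 in S961 mice did.

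Reg3b, also called pancreatitis-associated protein, had 1143 CPM in recovered and 2630 CPM in S961 acinar cells, a log2 ratio of -1.20 (-1.37 to -1.04). Control acinar cells had 12910 CPM, of which 98.1% came from 1 of their 6 barcodes. Its median per 10000 UMIs was 5.28 in recovered and 10.9 in S961 barcodes, the highest barcode had 132 in recovered and 131 in S961, and 1 recovered barcode gave 38.9% of that library's Reg3b. Reg3g, a lectin that kills Gram-positive bacteria in the gut, had 97.2 CPM in recovered, 395 CPM in S961 and 337 CPM in control acinar cells, with a log2 ratio of -2.02 (-2.62 to -1.48). It was read in 8 of 35 recovered and 71 of 97 S961 barcodes, and after thinning in 12.5% of recovered and 39.8% of S961 barcodes. Its control value came from 14 UMIs, 64.3% of them in 1 barcode. Reg3d had 38.2 CPM in recovered and 127 CPM in S961 acinar cells and 0 UMIs in control, and its log2 ratio was -1.74 (-2.76 to -0.88). Reg3a had 76.4 CPM in recovered, 181 CPM in S961 and 96.3 CPM in control acinar cells, with a log2 ratio of -1.25 (-1.94 to -0.63). This gene rested on few barcodes, since 86.4% of its 22 recovered UMIs came from 1, and with the mean of each barcode's CPM its log2 ratio was -0.24. Reg1, which belongs to the rule, had 12344 CPM in recovered, 21582 CPM in S961 and 27964 CPM in control acinar cells, a log2 ratio of -0.81. Of the control Reg1 UMIs, 85.3% came from 1 barcode. The Reg1 median per 10000 UMIs was 119 in recovered, 173 in S961 and 58.1 in control barcodes.

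**Figure D3:**
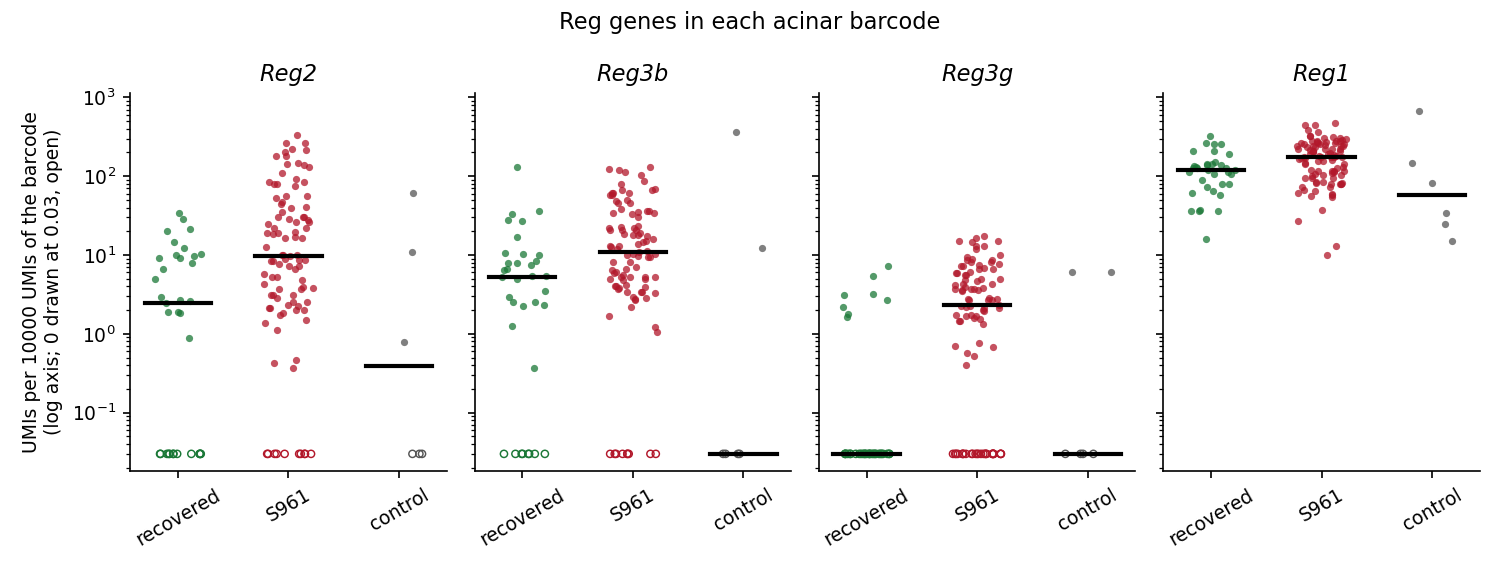
Reg2, Reg3b, Reg3g and Reg1 in each acinar barcode, in UMIs per 10000 UMIs of the barcode (log axis), with the library's median as a bar and barcodes at 0 drawn open at 0.03. Medians of Reg2 were 2.43 in recovered and 9.85 in S961 barcodes. In the control library 1 barcode carried most of the UMIs of each gene.

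Reg genes also went together from barcode to barcode in S961 mice. The Spearman correlation of Reg2 with Reg3b was 0.79 over 97 S961 barcodes and 0.66 over 93 of them thinned to 2000 UMIs, against 0.14 over 35 and 0.32 over 32 recovered barcodes. Reg1 with Reg2 gave 0.58 in S961 (0.54 thinned) and 0.28 in recovered barcodes (0.14 thinned). Reg1 with Reg3b gave 0.39 in recovered (0.32 thinned) and 0.59 in S961 barcodes (0.50 thinned), and Reg3b with Reg3g gave 0.34 in recovered (0.11 thinned) and 0.57 in S961 (0.38 thinned). Of the enzyme genes, Cela1 with Reg2 gave 0.02 in recovered and 0.06 in S961 barcodes, and Ctrb1 with Reg2 gave 0.11 and 0.21. All barcodes of a library share its preparation, and the recovered ones are fewer and shallower, so the gap between libraries was not tested.

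The same RNA could be read outside the acinar barcodes, although from few UMIs. Relative to Ctrb1, the chymotrypsinogen B gene, other kept barcodes held 4.64 Reg2 UMIs per 1000 Ctrb1 UMIs in recovered and 43.5 in S961 mice, against 4.66 in recovered and 29.9 in S961 acinar barcodes. In S961, 80.7% of the Reg2 UMIs outside acinar barcodes came from 1 barcode, and without it their log2 ratio was -1.24 (-2.23 to -0.39), against -3.23 with it. Acinar-rich barcodes under 500 genes, 32 in recovered and 166 in S961 mice at the same mitochondrial and insulin limits, held 5.71 and 17.7. The other 5 Reg genes did not follow Reg2 in these thin barcodes, where their log2 ratios were 2.69 for Reg3a, 2.41 for Reg3b, 0.60 for Reg3g, 0.10 for Reg3d and 0.07 for Reg1. Those of Reg3g, Reg3d and Reg1 had intervals that spanned 0. Reg3b had 38.6 per 1000 Ctrb1 UMIs in recovered and 7.28 in S961, with 88.9% of the recovered Reg3b from 1 barcode. Without that barcode its log2 ratio was -0.53 (-1.40 to 0.23). Without the top recovered barcode of each gene, that of Reg3a was -0.78 (-6.19 to 1.95) and that of Reg1 -0.50 (-0.67 to -0.33).

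**Figure D4:**
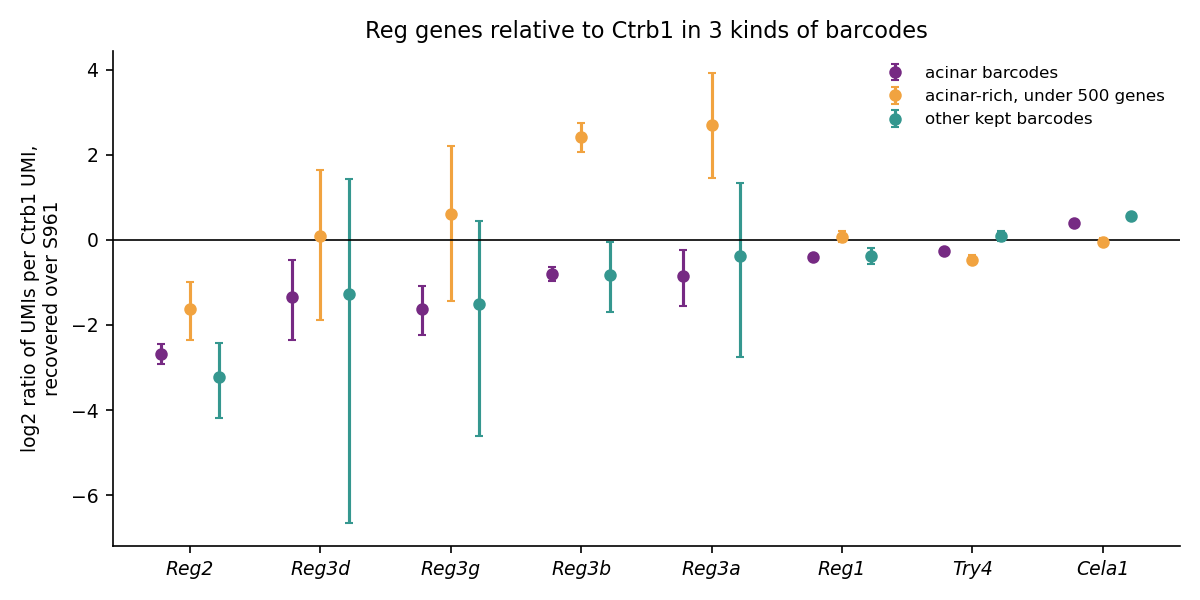
Log2 ratio, recovered over S961, of UMIs per Ctrb1 UMI for 6 Reg genes, Try4 and Cela1, in acinar barcodes, in acinar-rich barcodes under 500 genes and in the other kept barcodes, with 95% counting intervals. Reg2 lies below 0 in all 3 kinds of barcodes (-2.68, -1.63 and -3.23), and without 1 S961 barcode it was at -1.24 in the other kept barcodes. The other 5 Reg genes lie above 0 in barcodes under 500 genes. Of these, Reg3b and Reg3a do so each mainly through 1 barcode, and Reg3g, Reg3d and Reg1 have intervals that span 0.

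The promoters of the Reg genes are shown because the genes share a locus and were lower together. The 250 bases before the RefSeq start (GRCm38.p6) were read for all 6 genes, and the 4 that overlap no GENCODE M21 exon are printed on the gene's strand. Capitals mark 3 letter strings looked for on both strands: CACCTG, an E-box as bound by the Ptf1a complex, TGGGAA, part of the second box of that complex's composite site, and TGCCAA, picked by eye after the sequences were seen. The matches did not overlap.
Reg2 (chr6:78404905-78405154, plus strand): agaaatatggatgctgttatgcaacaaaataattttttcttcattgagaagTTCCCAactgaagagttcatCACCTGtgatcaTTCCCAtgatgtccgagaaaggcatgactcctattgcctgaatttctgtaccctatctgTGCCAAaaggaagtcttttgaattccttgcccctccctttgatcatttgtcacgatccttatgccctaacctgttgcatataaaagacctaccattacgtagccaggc
Reg3a (chr6:78380459-78380708, plus strand): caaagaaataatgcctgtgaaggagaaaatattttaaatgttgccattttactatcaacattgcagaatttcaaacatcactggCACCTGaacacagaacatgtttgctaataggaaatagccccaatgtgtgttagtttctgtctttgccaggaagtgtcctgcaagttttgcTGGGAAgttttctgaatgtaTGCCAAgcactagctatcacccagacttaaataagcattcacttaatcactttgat
Reg3d (chr6:78378866-78379115, minus strand): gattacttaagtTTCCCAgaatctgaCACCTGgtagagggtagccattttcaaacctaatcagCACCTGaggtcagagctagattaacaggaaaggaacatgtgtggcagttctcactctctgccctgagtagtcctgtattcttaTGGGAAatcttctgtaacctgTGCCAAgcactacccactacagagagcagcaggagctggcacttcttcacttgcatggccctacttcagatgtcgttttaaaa
Reg3g (chr6:78468875-78469124, minus strand): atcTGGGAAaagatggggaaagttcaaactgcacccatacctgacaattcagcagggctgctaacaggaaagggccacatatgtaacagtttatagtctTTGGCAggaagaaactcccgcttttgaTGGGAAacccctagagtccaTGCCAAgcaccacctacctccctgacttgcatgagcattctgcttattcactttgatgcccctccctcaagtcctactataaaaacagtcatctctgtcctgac
CACCTG or its complement was present in 4 of the 6 windows and TGGGAA in 5 of 6, against 17.1% and 21.5% of 27025 promoter windows of this length. TGCCAA was present in 6 of 6 and in 12.5% of all windows. It was picked from these same sequences, so its count here cannot be weighed against that share. The 6 windows belong to related genes of a shared locus and are not independent of each other. The shares of all windows are therefore a description and no test for any of these strings. A match is a run of letters and says nothing of binding.

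Some trypsin-like genes were lower in recovered acinar cells, with their UMIs held by few barcodes. The family is a tandem array of near-identical paralogs, so the split of reads among its members is uncertain. Of 9 listed genes in the table beyond the rule's Prss2, Try4 and Try5, 7 were measured. At least 1.5-fold higher in recovered acinar cells was 1, and 3 were lower by as much, where 20.4% and 3.42% of all measured genes were. The list's median lay 0.44 log2 units below that of all genes. Gm2663 had 469 CPM in recovered, 2155 CPM in S961 and 0 UMIs in control acinar cells (log2 ratio -2.20, interval -2.46 to -1.95), while 3 barcodes gave 51.7% of the S961 UMIs and 1 barcode 74.1% of the recovered ones. Relative to Ctrb1 its log2 ratio was -1.81, with -3.71 without that recovered barcode and -1.49 without the top S961 barcode. 1810009J06Rik had 24.3 CPM in recovered and 893 CPM in S961 acinar cells (-5.20, -6.52 to -4.15). It was read in 2 of 35 recovered and 30 of 97 S961 barcodes, and after thinning in 1 of 32 recovered and 19 of 93 S961 barcodes. Across S961 barcodes the share of 1810009J06Rik went with that of Gm2663, with a Spearman correlation of 0.71 over 97 barcodes and 0.68 over 93 thinned ones. Prss3 had 66.0 CPM in recovered and 379 CPM in S961 acinar cells, where 1 barcode gave 48.6% of its UMIs. Without the top S961 barcode the ratios relative to Ctrb1 were -1.19 for Prss3, against -2.13 with it, and -4.30 for 1810009J06Rik, against -4.81 with it. Gm4744 went the other way, with 278 CPM in recovered and 43.9 CPM in S961 acinar cells, but 97.5% of its recovered UMIs came from 1 barcode.

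The 12 genes that chose the barcodes are given as a description only. They ran from a log2 ratio of 0.14 for the carboxypeptidase Cpb1 to -0.81 for Reg1, and 2 of 12 passed 1.5-fold, both lower. Relative to the median gene their median was -0.44, and 4 of 12 were lower. Ctrb1 had 117141 CPM in recovered, 153931 CPM in S961 and 86808 CPM in control acinar cells. Cela1, a pancreatic elastase, had 47170 CPM in recovered, 47136 CPM in S961 and 20666 CPM in control. Try4, the other rule gene past 1.5-fold, had 25622 CPM in recovered and 40384 CPM in S961 acinar cells, and Cpa1, carboxypeptidase A1, had 18790 CPM in recovered and 18093 CPM in S961. Among other digestive enzymes, 14 of 18 listed genes in the table were measured, of which 5 were higher, 1 lower and 8 neither (20.4% and 3.42% of all measured genes were higher and lower), with a median 0.06 log2 units below the median gene. Amy1, an amylase, had 382 CPM in recovered and 176 CPM in S961 acinar cells (log2 ratio 1.12), and the pancreatic amylase copies Amy2a2 and Amy2a4 had ratios of 0.67 and 1.02. The amylases are again near-identical copies, and 28.2% of the recovered Amy1 came from 1 barcode. Ctrc, chymotrypsin C, which degrades trypsinogen, had 285 CPM in recovered and 97.1 CPM in S961 acinar cells (1.55), but 67.1% of the recovered UMIs came from 1 barcode and the ratio was -0.23 when barcodes were limited to under 2% insulin. Pla2g1b, pancreatic phospholipase A2, had a ratio of 0.68. Rnase1, the pancreatic ribonuclease, was the lower one, with 1000 CPM in recovered and 1683 CPM in S961 acinar cells (-0.75).

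Inhibitors, lectins and granule proteins had 14 of 25 listed genes measured, 1 higher, 1 lower and 12 neither, and a median 0.40 log2 units below the median gene. Dmbt1, a scavenger-receptor glycoprotein of mucosal defence, was the lower one, with 174 CPM in recovered, 538 CPM in S961 and 554 CPM in control acinar cells (log2 ratio -1.63, -2.07 to -1.22). It was read in 17 of 35 recovered and 78 of 97 S961 barcodes, and 73.9% of its 23 control UMIs came from 1 barcode. Spink1, the trypsin inhibitor of the granule, had 889 CPM in recovered and 1237 CPM in S961 acinar cells (-0.48), and Gp2, the main membrane protein of zymogen granules, had 1104 and 796 CPM (0.47). Rab3d, a granule GTPase, had 72.9 CPM in recovered and 42.6 CPM in S961 acinar cells. Also among the 10 lowest ratios, which leave out unnamed gene models, were Serpinb1a, an inhibitor of neutrophil proteases, and Defb1, an antimicrobial defensin. Serpinb1a had 267 CPM in recovered, 580 CPM in S961 and 530 CPM in control acinar cells (-1.12), with 59.1% of its 22 control UMIs in 1 barcode. Defb1 had 17.4 CPM in recovered, from 5 UMIs, and 57.6 CPM in S961 (-1.73, -3.38 to -0.47).

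The 10 highest ratios beyond the enzymes belonged mostly to genes of low level. Egr1, an immediate early transcription factor, had 135 CPM in recovered, 41.3 CPM in S961 and 289 CPM in control acinar cells (log2 ratio 1.71, 1.14 to 2.27). Its 39 recovered UMIs lay in 10 of 35 barcodes, 71.8% of them in 3, and 75% of its 12 control UMIs lay in 1 barcode. Immediate early genes, which respond within minutes to stimulation or tissue handling, had 8 of 23 listed genes measured, 6 of them higher and 0 lower, where 20.4% of all genes were higher. Their median was 0.39 above the median gene, and relative to it 2 of 8, Egr1 and Klf6, passed 1.5-fold. Control acinar cells had more of each than S961 cells did, for example Klf6 with 170 CPM in recovered, 88.8 CPM in S961 and 458 CPM in control, 78.9% of the control UMIs in 1 barcode. In the other kept barcodes the measured members of this list had a median log2 ratio of -0.54. Fabp5, a fatty acid-binding protein, had 861 CPM in recovered and 355 CPM in S961 acinar cells (1.28), with 39.5% of the recovered UMIs in 1 barcode. Zfp36l1, an RNA-decay factor, had 122 and 39.5 CPM (1.62), Arhgap5 118 and 37.8 CPM (1.64), and the long noncoding RNA Neat1 115 and 39.5 CPM (1.54), the recovered value standing before that of S961. Cd2ap, an actin-linked adaptor, Tuba1a, an alpha tubulin, and Txnip, a thioredoxin-binding protein, had ratios of 1.31, 1.41 and 1.26. The top recovered barcode of each gene held 54.3% of the Zfp36l1, 45.5% of the Neat1 and 66.7% of the Tuba1a UMIs.

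Of the other pathway lists, the MHC and interferon list and the glycolysis and hypoxia list lay furthest below the median gene, and most of the rest lay close to it. Among all measured genes 20.4% were higher and 3.42% lower, and relative to the median gene 6.56% were higher and 9.42% lower. Endoplasmic reticulum chaperones and stress sensors, which fold the secreted enzymes, had 20 of 37 measured, 5 higher and 1 lower, and a median 0.03 log2 units below the median gene. Hspa5, the chaperone BiP, had 465 CPM in recovered and 498 CPM in S961 acinar cells, against 1110 and 1153 CPM in the other kept barcodes, while Herpud1, of the degradation pathway, had a ratio of 1.14 and Manf, a secreted stress protein, -0.67. Translocation and Golgi genes had 25 of 38 measured with a median of -0.24. Genes of the Atf4 amino acid response had 21 of 34 measured with a median of 0.04; Asns, asparagine synthetase, had 320 CPM in recovered and 199.5 CPM in S961 acinar cells, and Trib3, a pseudokinase, 72.9 and 36.9 CPM. Nuclear respiration genes had 48 of 57 measured, 7 higher and 0 lower, with a median of -0.02. Glycolysis and hypoxia genes had 12 of 29 measured and a median of -0.49, and relative to the median gene 6 were lower and 1 higher; Ldha, lactate dehydrogenase A, had 132 CPM in recovered, 193 CPM in S961 and 867 CPM in control acinar cells, 88.9% of the control UMIs in 1 barcode. The MHC and interferon list had 6 of 42 measured and a median of -0.64, with 4 of 6 lower relative to the median gene, and Ifitm3, an antiviral membrane protein, had 66.0 CPM in recovered and 143 CPM in S961 (-1.11). In the metal and oxidative list (23 of 30 measured, median -0.10), Hmox1, heme oxygenase, had 17.4 CPM in recovered and 53.6 CPM in S961 acinar cells (-1.63), and Gclc, of glutathione synthesis, 90.3 and 159 CPM (-0.81), with 37.7% of the S961 Gclc in 1 barcode. At the recovered depth the Hmox1 value rests on few UMIs. Cholesterol genes had 3 of 28 measured, of which Insig1 (1.37) and Msmo1 (1.12) were higher and Fdps (0.03) was neither. The lysosome list (17 of 30 measured, 0.04), the heat shock list (8 of 16, 0.01), the cell division list (3 of 25, 0.36) and the inflammation list (3 of 36, 0.34) had few members apart from the median gene. Sqstm1, the autophagy receptor p62, had 368 CPM in recovered and 546 CPM in S961, and Cryab, a small heat shock protein, 233 and 113 CPM.

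**Figure D5:**
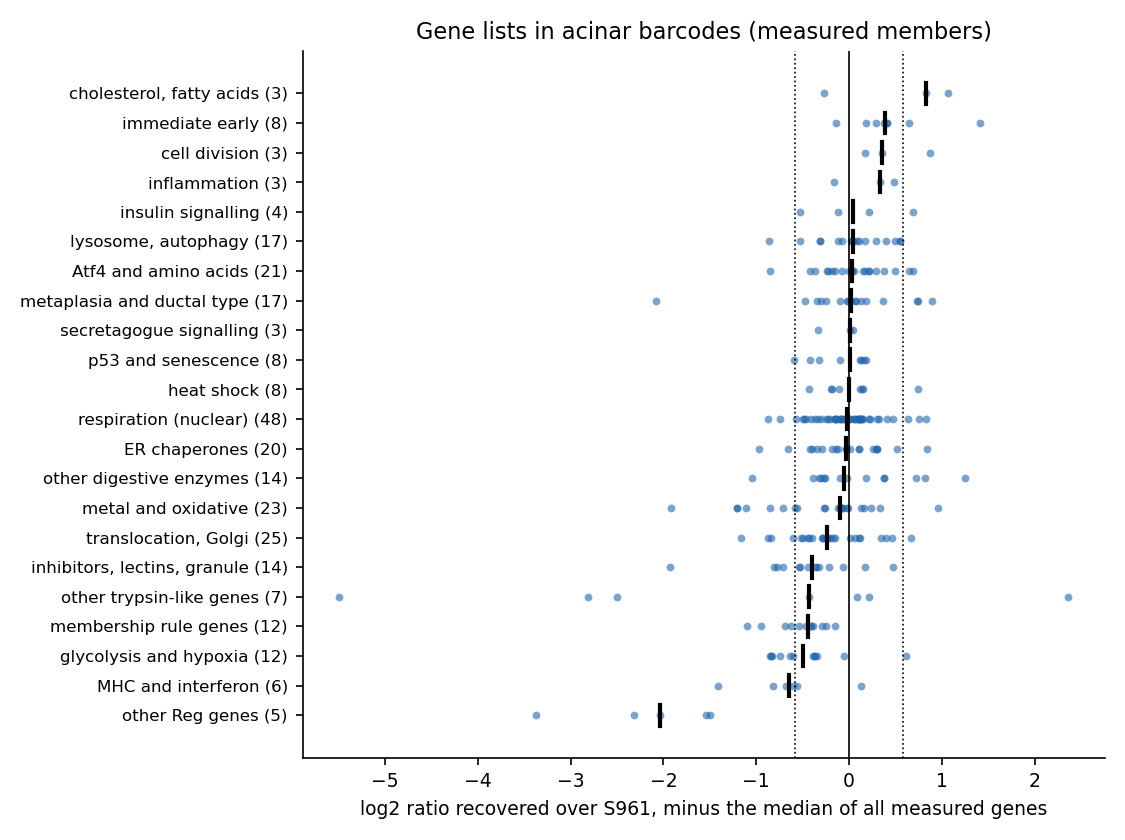
Log2 ratio recovered over S961 of the measured members of each gene list (points), minus the median of all 1433 measured genes, with each list's median as a bar and 1.5-fold dotted. The 5 Reg genes besides Reg1 lie between -1.50 and -3.37, and the other lists with at least 5 measured members have medians between -0.64 and 0.39.

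Genes of a duct-like state, of senescence and of insulin action were also read. The metaplasia and ductal list had 17 of 36 measured, 4 higher, 1 lower and 12 neither, near the 20.4% of all genes that were higher, and a median of 0.02 relative to the median gene. Anxa3, an annexin, had 410 CPM in recovered and 199 CPM in S961 acinar cells (1.05), and Krt19, a duct keratin, 646 CPM in recovered, 499 CPM in S961 and 1421 CPM in control. Of the 59 control Krt19 UMIs, 76.3% came from 1 barcode. Lgals3, galectin-3, had 191 and 83.9 CPM (1.19), with 61.8% of the recovered UMIs in 1 barcode. Spp1, osteopontin, had 229 CPM in recovered and 787 CPM in S961 acinar cells (-1.78), at most 5.72% of its level in another class of barcodes of the same library. In the p53 and senescence list, 8 of 24 were measured and 8 of 8 were within 1.5-fold. Cdkn1a, the cell cycle inhibitor p21, had 257 CPM in recovered, 262 CPM in S961 and 795 CPM in control acinar cells. Of the 33 control Cdkn1a UMIs, 57.6% came from 1 barcode. The receptor that S961 blocks was read from few UMIs: Insr had 6 UMIs in recovered, 9 in S961 and 1 in control acinar cells, and Igf1r had 7, 31 and 2. Irs1 had 0 UMIs in recovered, 1 in S961 and 0 in control, and Irs2 had 0, 4 and 0. Of 25 insulin signalling genes 4 were measured, and 1, Trib3, was higher. Cckar, the cholecystokinin receptor, had 3 UMIs in recovered, 7 in S961 and 0 in control, 3 of 26 secretagogue signalling genes were measured, and none of the 3 passed 1.5-fold. Aldh1a3, a dehydrogenase of progenitor-like and stressed pancreatic cells, had 1, 1 and 0 UMIs. Scaled for depth, Insr came to 20.8 CPM in recovered, 3.95 CPM in S961 and 24.1 CPM in control acinar cells, a log2 ratio of 2.40 (0.63 to 4.05) that rests on 3 recovered and 7 S961 barcodes. The other kept barcodes held Insr at 19.2 CPM in recovered and 20.9 CPM in S961 mice. The intervals for Igf1r (-0.59 to 2.05) and Cckar (-0.82 to 3.89) spanned 0, so a difference in these was not detectable at this depth.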

How the data were processed

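RNA of islet cells was measured in 3 droplet libraries. The deposited values are counts: whole-number UMI counts of 31053 genes in 24590 barcodes. Cell Ranger and the build mm10 are named without a version, per the submitters' processing notes. No barcode held under 500 UMIs. Barcodes were assigned to libraries by the suffix in the labels, and no column went unused. The membership rule, the gene lists and the named genes were chosen with earlier results of these data known. UMIs were summed over acinar barcodes of a library and scaled to CPM, and ratios carry exact conditional binomial 95% intervals. A count of 0 was set to 3 UMIs, a bound. A gene was measured at 100 UMIs over both libraries and called at 1.5-fold. Named genes were all measured enzyme, trypsin-like, Reg and acinar factor genes, the 10 highest and 10 lowest ratios by the interval bound nearest 0 (at least 50 CPM; rule genes, mitochondrial, ribosomal protein and sex-linked genes, gene models with Gm or Rik names and other cells' markers left out), the members with large ratios in the other lists, and 7 insulin, cholecystokinin, cell cycle and progenitor genes. Resp18, Spp1 and Chga were passed over, since acinar cells held under 10% of their level in another barcode class. Doublets were called with Scrublet in scanpy 1.11.5 (expected rate 0.06) and kept. Thinning used a fixed seed and 2000 UMIs. Coordinates are from GENCODE M21 and promoters from RefSeq. The ratio was tested on simulated data. Python 3.11.15, numpy 2.4.6 and scipy 1.17.1 were used. Alternatives changed the membership limits, doublets, scale, summing, depth, the count filter and the fold.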

Additional observations from a re-analysis of the deposited data

Results flagged for a closer look

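Acinar-rich barcodes also occurred among barcodes under 500 genes, which the comparisons did not use. They formed 2.17% of such barcodes in the recovered library (51 of 2349) and 10.98% in the S961 library (212 of 1930), both above the 0.350% of the control library (16 of 4577).

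Relative to Ctrb1, the point ratios of 5 of the 6 Reg genes (Reg2 apart) had opposite signs in acinar barcodes and in acinar-rich barcodes under 500 genes. In the thinner barcodes only Reg3a and Reg3b had intervals that left out 0, and the difference was not tested. The log2 ratio of recovered over S961 was -0.81 in acinar barcodes and 2.41 in the thinner ones for Reg3b, -0.85 and 2.69 for Reg3a, -1.63 and 0.60 for Reg3g, -1.34 and 0.10 for Reg3d, and -0.41 and 0.07 for Reg1. Prss3, a trypsinogen, likewise stood at -2.13 and 1.80, with 76.9% of its 13 recovered UMIs in the thinner barcodes from 1 barcode. In the thinner recovered barcodes the top barcode of each gene gave 88.9% of the Reg3b, 92.3% of the Reg3a and 50% of the Reg3g UMIs. Without it the ratios were -0.53 (-1.40 to 0.23), -0.78 (-6.19 to 1.95) and -0.17 (-3.33 to 1.90). The intervals of Reg3b, Reg3a and Reg3g spanned 0, so no direction is shown for them. For Reg1 the top barcode gave 42.6% of the UMIs. Without it the Reg1 ratio was -0.50 (-0.67 to -0.33), of the same sign as in acinar barcodes. All 4 Reg3d UMIs of the thinner recovered barcodes came from 1 barcode.

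Fabp5 and Zfp36l1 were higher in recovered than in S961 acinar barcodes and lower in the other kept barcodes, and the difference was not tested. Their log2 ratios were 1.28 in acinar barcodes and -0.76 in the others for Fabp5, and 1.62 and -0.84 for Zfp36l1. The top recovered acinar barcode of each gene held 39.5% of the Fabp5 and 54.3% of the 35 Zfp36l1 UMIs. After thinning to 2000 UMIs the acinar ratio of Zfp36l1 was -0.046 (-2.57 to 1.96).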

How the results depend on the processing

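No paired analysis was possible because each group was 1 library, and for the same reason no library could be left out. Of the values that answer a comparison, 314 were labelled the same under an alternative and 28 moved. This label did not require a list median to keep its size or sign. The relative median of the trypsin-like list was -0.44 in the main setting, -3.68 at 1000 genes and -2.83 with insulin under 2%. That of other digestive enzymes went from -0.06 to 0.12 with the mean of barcode CPM. All of these were labelled the same. Among values of single named genes, 585 were labelled the same and 233 moved. A further 7, of genes past 1.5-fold in the main setting, changed sign. The share of acinar barcodes was 1.69% in recovered and 5.50% in S961 mice at 200 genes, 0.579% and 2.17% at 1000 genes, and 0.594% in recovered mice with insulin under 2%. Counts of genes past 1.5-fold, higher and then lower in recovered acinar cells, were 94 and 135 with the median gene set to 0, 127 and 104 on a scale without rule, mitochondrial and insulin genes, 10 and 19 of 170 after thinning to 2000 UMIs, 54 and 21 of 455 at 300 UMIs, 4107 and 753 of 8611 with no filter but a UMI in both libraries, and 53 and 24 at a fold of 2. The mean of each barcode's CPM gave 152 lower genes. Chosen after seeing the data, leaving out the deepest barcode of each library gave 74 lower genes of 1304, and leaving out barcodes over 50000 UMIs gave 137 higher genes of 881. The median of the rule genes relative to all genes was -0.72 at 1000 genes, -0.27 without the deepest barcodes, -0.17 with the mean of barcode CPM and -0.19 after thinning. Relative medians were also -0.43 for other digestive enzymes at 1000 genes, -0.31 for chaperones without barcodes over 50000 UMIs, -0.28 for respiration with no filter and -0.22 for lysosome genes after thinning. Among genes past 1.5-fold in the main setting, Ctrc changed sign (-0.42 at 1000 genes, -0.23 with insulin under 2%), as did Gm4744 (-2.34 and -2.47 under the same limits). Pla2g1b did so at 1000 genes (-0.016), and Zfp36l1 (-0.046) and Defb1 (0.12) after thinning. The cause was not tested. Reg2 ranged from -3.49 to -2.74, Reg3b from -1.83 to -0.79, Reg3g from -2.74 to -1.77, Reg3d from -2.53 to -1.42 and Reg3a from -5.37 to -0.14. Thinning left too few Reg genes measured for a list value. Recovered acinar cells, with fewer UMIs, limit the precision.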

Other observations

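The 6 control acinar barcodes were unlike each other. The deepest, with 14604 UMIs and 3368 genes, held 990 Reg1, 526 Reg3b, 90 Reg2 and 45 Krt19 UMIs but 54 of Nupr1, and 13.2% of its UMIs came from the rule genes. The next, with 12616 UMIs, held 19 Reg1, 0 Reg3b and 1 Reg2 UMIs but 508 of Nupr1, and its rule share was 34.8%. Clu was high in both, at 443 and 394 UMIs. The shallowest had 17.6% mitochondrial and 10.2% insulin UMIs.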
